A study of Vitis vinifera with 36 samples.

Results

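The genes described here are the expansins, the xyloglucan endotransglucosylase/hydrolases (XTHs) and the cellulose synthase superfamily of the grape berry, 127 of the 27751 genes in the deposited table. They were taken by the protein domain listed for each gene: 30 carry the pollen allergen domain of expansins, 33 a catalytic or C-terminal XTH domain, and 64 a cellulose synthase domain. No gene carried the domains of more than 1 family. The closest Swiss-Prot protein, mostly from Arabidopsis or rice, was used to name the subfamilies. Among the 30 expansins, 20 were closest to A-type, 4 to B-type, 1 to like-A and 4 to like-B expansins. The remaining gene, VIT_07s0151g00670, is annotated as the olive pollen protein Ole e 6 and not as an expansin, and it had at most 2 reads in any library. The cellulose synthases comprised 6 catalytic subunits (CesA) closest to Arabidopsis primary-wall subunits, 3 closest to its secondary-wall subunits and 6 left untyped. The cellulose synthase-like (Csl) genes comprised 2 CslB, 6 CslD, 14 CslE, 19 CslG and 8 CslH genes.

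Expression was measured by RNA-seq of the berry, specified in the methods as pericarp, of the cultivar labelled ‘Sanbenti’ (‘Summer Black’), called the parent below, and of its bud sport labelled ‘11-06-25’ (‘Nantaihutezao’). A bud sport is a shoot that carries a somatic change and is propagated as a clone, so each cultivar is 1 genotype. The paper describes this bud sport as early ripening, maturing about 2 weeks before the parent. Whether berries of the same stage were equally ripe in both cultivars was not tested, so cultivar and ripeness cannot be told apart in comparisons at a stage. Both grew as 3-year-old vines in the same plastic film greenhouse under normal management, and 30 berries from 2 clusters were picked each time. Berries were taken at veraison (S5), 7, 14, 21 and 28 days later (S6 to S9) and at maturity (S10, for which the labels give no day), with 3 libraries, a to c, for each cultivar and stage. The libraries are called biological replicates, but nothing says whether they came from separate vines, so the p-values measure the spread between these libraries.

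The primary cell wall is a network of cellulose microfibrils tethered by xyloglucan and embedded in pectin. CesA subunits assemble into complexes in the plasma membrane that spin out the microfibrils, XTHs cut xyloglucan chains and rejoin or hydrolyse them, and expansins loosen the contacts between the polymers without cutting them. Grape berries start to soften and resume their growth around veraison, a phase in which the walls of the flesh and skin are remodelled.

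The 36 libraries held 15323095 to 20469617 counted reads, and the 127 genes took 0.484% to 0.903% of them. Of the 127 genes, 28 had no read in any library and 39 had at most 3 reads in every library. Of the rest, 75 passed the filter on low counts over the 36 libraries (25 XTHs, 31 cellulose synthases and 19 expansins). Each library lay closest to those of its own group. Library a of the parent at S8 and at S9 stood apart from the other 2 libraries of its group, with chi-square values per degree of freedom of 17.9 to 31.1 against 2.28 to 12.7 for the other 32 replicate pairs, so the S8 and S9 counts of members, and the values that moved past a threshold, are also given without them. The list of berry ripening markers (34 genes, 5 of them without a read) summed to 1091 to 1106 CPM (counts scaled to the effective library size) in the parent at S5 and to 8647 to 8932 CPM in the bud sport. From S6 to S10 it summed to 6993 to 13700 CPM in the parent and to 12500 to 22750 CPM in the bud sport. The xylem and fibre list (29 genes, 10 without a read) stayed within 393 to 589 CPM, the green tissue list (22 genes, 1 without a read) within 482 to 2182 CPM and the seed list (10 genes, 4 without a read) within 3.13 to 22.8 CPM. The part of these shifts in the results was not tested, and in bulk samples fewer cells of a type cannot be told apart from less RNA per cell.

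The 3 families differed in level and in course. Summed over its members, the XTH family of the parent stood at 228 ± 5.72 CPM (mean ± SD over 3 libraries) in S5 berries and at 1104 ± 13.3 CPM in S10 berries, with a higher mean at each stage than at the one before. The bud sport family stood at 747 ± 18.3 CPM and 2036 ± 47.8 CPM, and the 3 bud sport libraries lay above the 3 parent libraries at each of the 6 stages. The ratio of the means was 3.28 at S5 and between 1.84 and 2.24 from S6 to S10. The cellulose synthases held nearly the same sum in both cultivars, with ratios of 0.912 to 1.08, and the libraries overlapped from S8 to S10. The expansin sum was 2.18 times as high in the bud sport at S5 and lower than in the parent at S10, with a ratio of 0.907. With 3 libraries against 3, an exact permutation test of such sums cannot give a p below 0.1, so overlap is reported in place of a p-value.

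**Figure D1:**
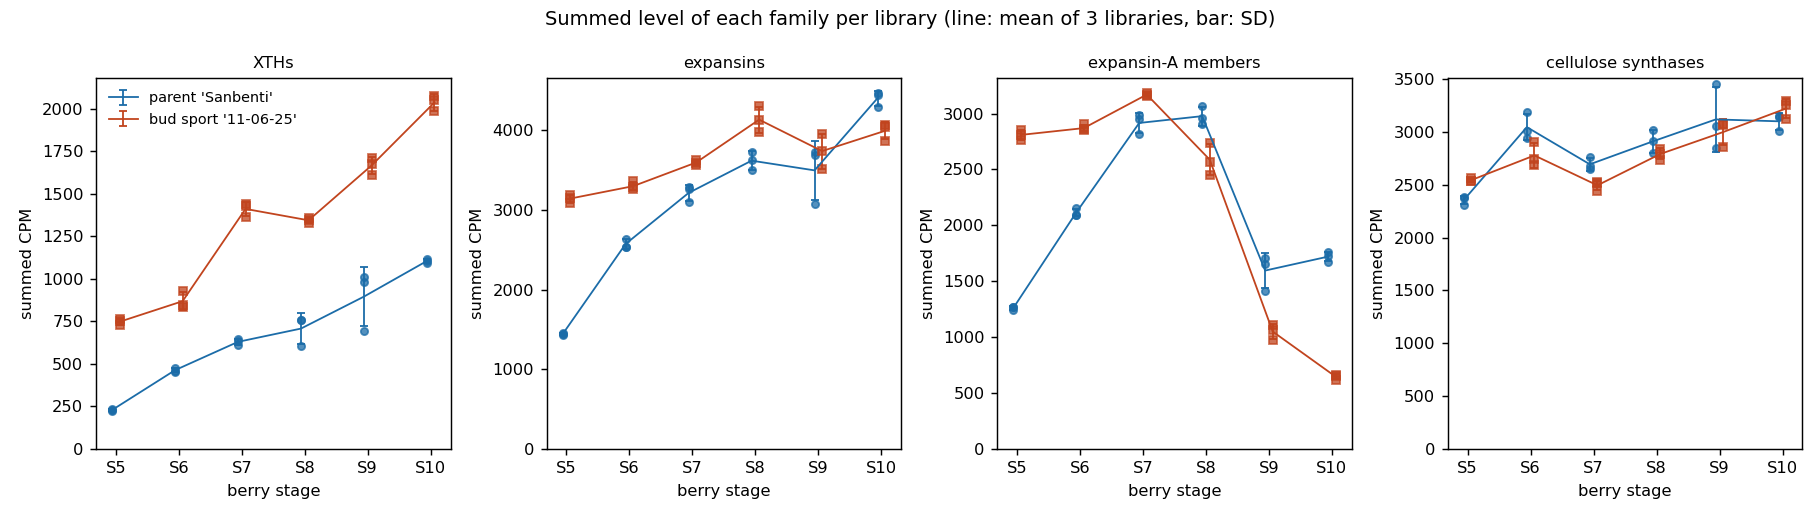
Summed level in CPM (vertical axis) of the XTHs, the expansins, the expansin-A members alone and the cellulose synthase superfamily at the 6 berry stages (horizontal axis). Points are single libraries of the parent (blue) and the bud sport (red), lines join the means of 3 libraries and bars are SDs. The XTH sum of the bud sport lies above that of the parent at all 6 stages, the expansin-A sum starts 2.23 times as high at S5 and ends at 0.375 times the parent level at S10, and the cellulose synthase sums stay within 0.912 to 1.08 of each other.

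Genes were compared between the cultivars at each stage, and between S10 and S5 within each cultivar. A gene was called higher or lower when edgeR’s quasi-likelihood test gave a false discovery rate (FDR, Benjamini-Hochberg over all genes tested) below 0.05 and the absolute log2 fold change was above 1. Log2 fold changes between cultivars are bud sport over parent. At S5, 21 of the 68 tested members were higher in the bud sport and 9 lower, beside 7.51% and 8.63% of all genes tested. At S6, 4 of 66 were higher and 9 lower (2.69% and 3.89% of all genes, 6.57% in all). At S7, 14 of 62 were higher and 5 lower (3.47% and 4.55%, 8.02% in all), and at S8 7 of 61 were higher and 5 lower (2.71% and 3.76%, 6.46% in all). At S9, 16 of 60 were higher and 2 lower (3.44% and 1.85%, 5.29% in all), and at S10 17 of 58 were higher and 4 lower (3.59% and 5.1%, 8.69% in all). Without the outlying parent library, 6 of 61 members were higher and 5 lower at S8, and 12 of 61 were higher and 2 lower at S9. Over the 6 stages, 49 members were called at least once, 25 of them XTHs, 13 expansins and 11 cellulose synthases. Of these 49, 10 were higher at one stage and lower at another. No share over all genes stands beside these counts over the 6 stages, so they are a description only.

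Within the parent, 28 of 70 tested members rose from S5 to S10 and 25 fell, beside 13% and 19.3% of all genes. Within the bud sport, 23 of 68 rose and 24 fell, beside 10.9% and 17.8% of all genes. The XTHs accounted for 17 of the rises in each cultivar. The expansins and cellulose synthases accounted for 20 of the 25 falls in the parent and for 21 of the 24 in the bud sport.

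Expansins of the A type act on the walls of dicots, and 3 of them (VIT_13s0067g02930, VIT_14s0108g01020 and VIT_17s0053g00990) were higher in the bud sport at S5 and lower at S10. At S5, 7 of 13 tested A-type members were higher in the bud sport and 0 were lower (1 at an unadjusted edgeR p below 0.05, 0 by DESeq2), whereas at S10 1 of 8 was higher and 4 were lower. Of all genes tested, 7.51% were higher and 8.63% lower at S5, and 3.59% were higher and 5.1% lower at S10. Summed over the 20 A-type genes, the level at S5 was 1267, 1240 and 1269 CPM in the parent and 2767, 2852 and 2807 CPM in the bud sport. At S10 it was 1729, 1675 and 1757 CPM in the parent and 618, 653 and 664 CPM in the bud sport. The libraries of the cultivars did not overlap at any stage, with the bud sport above from S5 to S7 and below from S8 to S10. The median over the 17 expansins tested at S5 was 0.86 on the log2 scale and that over the 10 tested at S10 was -0.84, beside -0.02 and 0.00 over all genes.

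The most abundant A-type gene was VIT_13s0067g02930, closest to Arabidopsis expansin-A8, with a mean of 655 FPKM (a count scaled by gene length and library size) in the parent at S5. Its level at S5 was 625, 625 and 648 CPM in the parent and 1400, 1476 and 1452 CPM in the bud sport. At S10 it was 1018, 960 and 1044 CPM in the parent and 321, 356 and 360 CPM in the bud sport. The groups did not overlap at either stage, and their order was reversed. The log2 fold change was 1.19 (SE 0.03, FDR 1.6e-14) at S5, lay between -0.48 and 0.82 from S6 to S9, and was -1.55 (SE 0.05, FDR 2.52e-13) at S10, all by edgeR’s quasi-likelihood test. From S5 to S10 the gene fell by 2.07 on the log2 scale in the bud sport (edgeR FDR 4.86e-15). The parent value of 0.68 stayed under the fold threshold. Between these ends the mean was highest at S8 in the parent, with 1690 CPM, and at S7 in the bud sport, with 1688 CPM. At S9 the means were 801 CPM in the parent and 568 CPM in the bud sport.

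VIT_14s0108g01020, which bears the symbol ATEXPA5 in the table and is closest to Arabidopsis expansin-A10, took a wider course. It had 19.2, 19.7 and 15.3 CPM in the parent at S5 and 68.6, 68.6 and 67.5 CPM in the bud sport. At S10 the parent libraries held 68.1, 65.7 and 67.2 CPM and the bud sport libraries 12.6, 12.3 and 11.3 CPM. The parent thus ended at about the level at which the bud sport began, and the groups were apart at both ends. In both cultivars the mean was highest at S7, with 163 CPM in the parent and 117 CPM in the bud sport, and lower from S8 on. By edgeR the log2 fold change was 1.92 (SE 0.07, FDR 2.94e-12) at S5, -1.15 at S8, -1.93 at S9 and -2.48 (SE 0.07, FDR 6.58e-14) at S10. Without the outlying parent library the values at S8 and S9 were -1.15 and -2.07.

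The remaining A-type genes of the S5 and S10 calls followed the same order in part. Of the 4 A-type members lower at S10, VIT_13s0067g02930, VIT_14s0108g01020 and VIT_17s0053g00990 had been higher at S5, and VIT_08s0007g00440 had a log2 fold change of 0.79 there. VIT_17s0053g00990 and VIT_08s0007g00440 lie outside the naming rule and are given because they complete this count. VIT_17s0000g06360 (ATEXPA14 in the table) was the 1 member higher at S10. It fell in both cultivars, from 25.6, 22.6 and 23.4 CPM at S5 to 1.45, 1.24 and 1.18 CPM at S10 in the parent. The bud sport levels went from 53.8, 49.3 and 50.2 CPM to 2.31, 2.56 and 3.43 CPM. Its log2 fold change between the cultivars was 1.10 at S5 and 1.09 at S10 (edgeR FDR 2.86e-10 and 0.00267). It was 0.91 at S10 without library c of the bud sport. At S6, S7 and S8 the value was negative (-0.73, -0.70 and -0.23), under the fold threshold. At S9 it was 1.73 (edgeR FDR 6.17e-05).

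VIT_06s0004g00070, closest to Arabidopsis expansin-A10, fell to no read in the bud sport. Its level in the bud sport was 10.7, 8.33 and 10.8 CPM at S5, and no read was counted in any bud sport library at S10. Set against a floor of 3 reads per library, the bud sport level at S5 was at least 62.0-fold higher than at S10. In the parent it held 1.48, 2.02 and 1.76 CPM at S5 and 0 to 0.162 CPM at S10. The parent level at S5 was lower than that of the bud sport (edgeR log2 fold change 2.51, FDR 2.46e-09), and at S6 the order was reversed (-1.20, FDR 0.000954).

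B-type expansins are a separate branch best known from grass pollen and grass cell walls. Of the 4 B-type genes in the berry, VIT_15s0021g02700, closest to a putative Arabidopsis expansin-B2, rose more than any other member called from S5 to S10 in either cultivar for which both stages had reads. In the parent it held 2.22, 1.86 and 1.38 CPM at S5, 267, 293 and 287 CPM at S8 and 2239, 2160 and 2258 CPM at S10. In the bud sport it held 16.2, 17.4 and 13.5 CPM at S5, 1098, 1061 and 1114 CPM at S8 and 2773, 2906 and 2919 CPM at S10. The bud sport libraries were above the parent libraries at all 3 of these stages. The log2 fold change from S5 to S10 was 10.25 (SE 0.07, edgeR FDR 8.04e-22) in the parent and 7.50 (SE 0.07, FDR 8.68e-19) in the bud sport.

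Between the cultivars VIT_15s0021g02700 was higher in the bud sport by 3.11 at S5, by 2.01 at S7 and by 1.95 at S8 on the log2 scale (edgeR FDR 1.09e-10, 4.67e-11 and 1.25e-09). At S6 its value was -0.12 (FDR 0.416), and at S9 and S10 it was 0.65 and 0.36, below the fold threshold. On the FPKM scale it supplied 0.135% ± 0.0289 (SD, n = 3) of the expansin sum in the parent at S5 and 49.9% ± 0.196 at S10. Its share in the bud sport was 0.529% ± 0.0685 at S5 and 69.6% ± 0.0389 at S10. Over the same span the share of the expansin-A8 type gene VIT_13s0067g02930 went from 41.5% ± 1.14 to 21.6% ± 0.437 in the parent and from 44.2% ± 0.625 to 8.09% ± 0.265 in the bud sport. The expansin pool of the ripe berry was thus led by the B-type gene in both cultivars, and the bud sport held the larger share of it. The other 2 tested B-type genes, VIT_09s0002g08510 and VIT_12s0059g00190, averaged at most 2.87 CPM at S5 and fell in both cultivars.

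**Figure D2:**
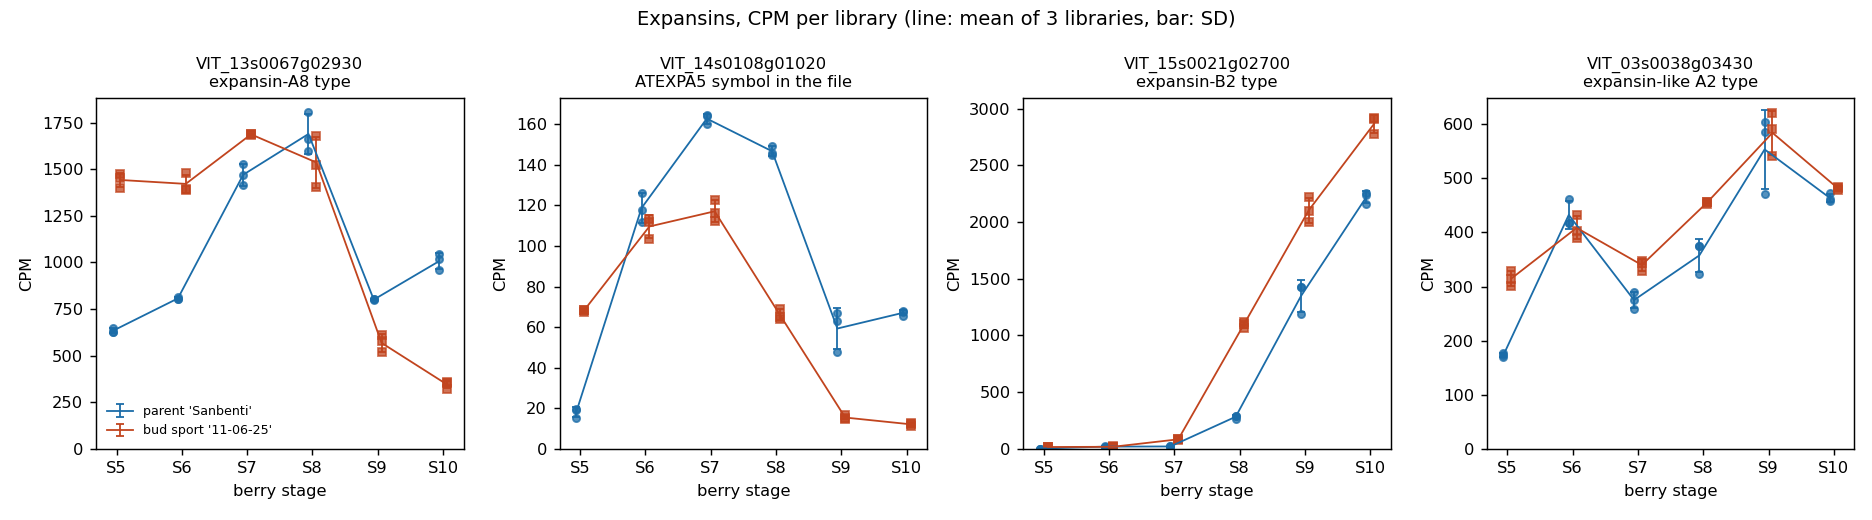
Level in CPM (vertical axes, each from 0) of 4 expansins at the 6 stages (horizontal axes). Points are single libraries of the parent (blue) and the bud sport (red), lines join means of 3 libraries and bars are SDs. The expansin-A8 type gene is higher in the bud sport at S5 and lower at S10, the gene with the symbol ATEXPA5 crosses between S5 and S8, and the expansin-B2 type gene rises to 2219 CPM in the parent and 2866 CPM in the bud sport.

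Expansin-like genes share the expansin fold, and no wall-loosening activity has been established for them. The like-A gene VIT_03s0038g03430 had 177, 174 and 169 CPM in the parent at S5 and 301, 314 and 329 CPM in the bud sport, without overlap, but its log2 fold change of 0.86 stayed under the fold threshold. It rose by 1.42 on the log2 scale in the parent (edgeR FDR 1.05e-15), with 472, 462 and 458 CPM at S10. In the bud sport it went by 0.61 to 478, 483 and 485 CPM. The like-B genes VIT_00s1455g00010 and VIT_00s0309g00050 passed the filter on low counts at S6 alone, where both were called lower in the bud sport. They lie outside the naming rule and averaged 4.23 and 0.871 CPM in the parent at S6. VIT_00s0309g00050 had no read in the bud sport at S6, so the parent level was at least 5.42-fold higher.

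The XTH family differed most often between the cultivars. At S5, 9 of 21 tested XTHs were higher in the bud sport and 4 lower, and at S6 4 were higher and 2 lower. At S7, 12 of 21 were higher and 1 lower, and at S8 6 of 23 were higher and 2 lower. At S9, 13 of 24 were higher and 0 lower, and at S10 14 of 23 were higher and 0 lower. Of all genes tested, 7.51%, 2.69%, 3.47%, 2.71%, 3.44% and 3.59% were higher at the 6 stages in turn. The shares lower were 8.63%, 3.89%, 4.55%, 3.76%, 1.85% and 5.1%. No XTH was called lower at S9 or S10 by edgeR or by DESeq2, and 0 and 1 had an unadjusted edgeR p below 0.05 in that direction. Without the outlying parent library, 5 of 23 were higher at S8 and 9 of 24 at S9. From S5 to S10 in turn, the family had medians of 0.94, 0.33, 1.41, 0.68, 1.08 and 1.58 on the log2 scale, beside -0.02 to 0.01 over all genes tested. Within the cultivars, 17 of 24 rose and 5 fell from S5 to S10 in the parent, and 17 of 25 rose and 3 fell in the bud sport, with medians of 2.34 and 2.32. Over all genes tested, 13% rose and 19.3% fell in the parent, and 10.9% rose and 17.8% fell in the bud sport.

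**Figure D3:**
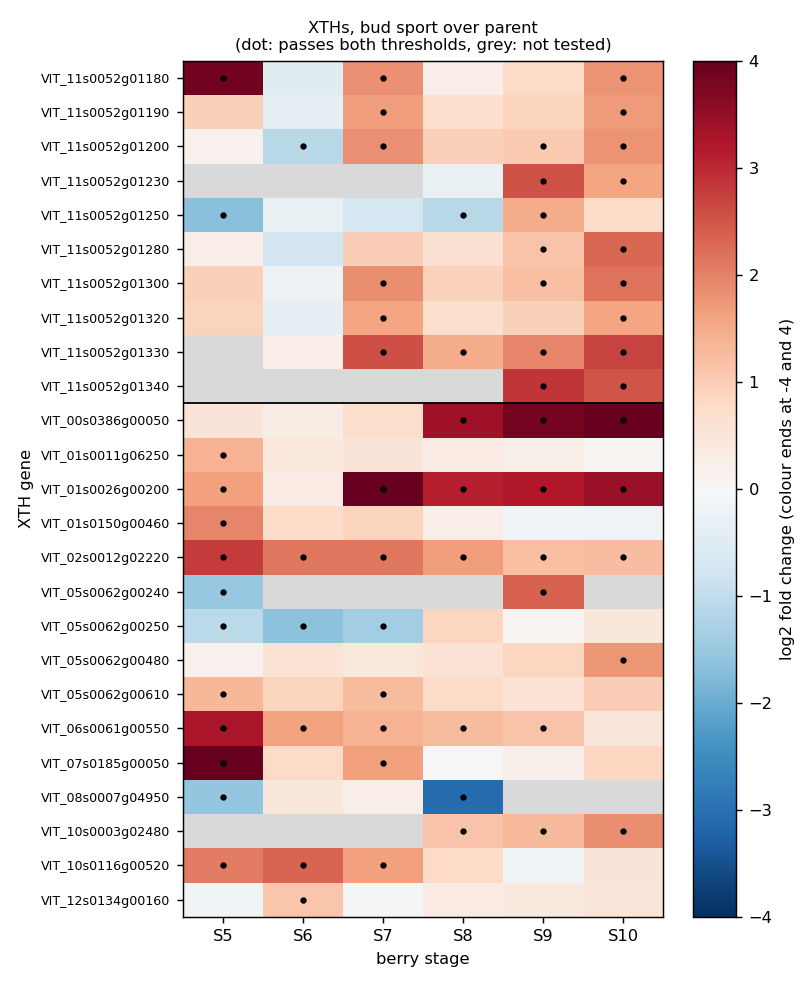
Log2 fold change, bud sport over parent (colour), of each XTH tested at 1 stage or more (vertical axis) at the 6 stages (horizontal axis). Dots mark genes called at an FDR below 0.05 and an absolute log2 fold change above 1, grey cells were not tested, and the line separates genes with the prefix VIT_11s0052g (above) from the others. At S10, 14 of 23 tested XTHs are called, all of them red, and 9 of these 14 carry the prefix.

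VIT_06s0061g00550 (XTR8 in the table, closest to Arabidopsis XTH32) was the most abundant XTH per length at S10 in both cultivars and at S5 in the bud sport, with 361 FPKM there. In the parent at S5 its 38.7 FPKM came after the 187 FPKM of VIT_00s0386g00050 and the 56.0 FPKM of VIT_01s0011g06250. VIT_06s0061g00550 had 33.0, 36.5 and 36.4 CPM in the parent at S5 and 330, 334 and 361 CPM in the bud sport. At S10 it had 500, 503 and 518 CPM in the parent and 702, 694 and 730 CPM in the bud sport. The bud sport was above the parent without overlap at both stages, and the distance narrowed. By edgeR the log2 fold change of S5 was 3.28 (SE 0.05, FDR 3.92e-17), and those of the 5 later stages were in turn 1.62, 1.41, 1.26, 1.14 and 0.48. Without the outlying parent library it was 1.08 at S8 and 0.92 at S9, the latter below the fold threshold.

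VIT_02s0012g02220, closest to Arabidopsis XTH30, was the 1 member called in the same direction at all 6 stages. Its level in the parent was 2.85, 3.13 and 2.29 CPM at S5 and 88.6, 90.3 and 96.0 CPM at S10. The bud sport libraries held 16.9, 20.7 and 19.6 CPM at S5 and 208, 221 and 221 CPM at S10. The log2 fold change between the cultivars went from 2.79 (SE 0.13, edgeR FDR 3.92e-11) at S5 to 1.22 at S9 and 1.24 (SE 0.04, FDR 1.37e-12) at S10. From S5 to S10 the gene rose by 5.05 on the log2 scale in the parent and by 3.50 in the bud sport.

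VIT_01s0026g00200 (XTH33) had 0.863, 0.912 and 0.698 CPM in the parent at S7 and 15.0, 15.1 and 15.5 CPM in the bud sport. At S10 it had 11.09, 10.14 and 10.01 CPM in the parent and 130, 103 and 109 CPM in the bud sport. Log2 fold changes of 1.63 at S5 and 0.33 at S6 preceded 4.19 (SE 0.15, edgeR FDR 1.13e-10) at S7, and the last 3 stages gave 3.12, 3.21 and 3.44 (SE 0.09, FDR 4.13e-14). It was called at 5 stages, all but S6. From S6 to S7 its mean went from 4.48 to 0.824 CPM in the parent and from 5.64 to 15.2 CPM in the bud sport.

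VIT_00s0386g00050, closest to Arabidopsis XTH7, took a different course in each cultivar, with a low level from S8 on in the parent and, in the bud sport, a level at S10 above that at S8. In the parent it went from 60.6, 67.4 and 62.8 CPM at S5 to 2.89, 2.47 and 2.03 CPM at S8 and 3.82, 2.81 and 2.91 CPM at S10. In the bud sport it went from 94.6, 93.0 and 86.4 CPM at S5 to 24.6, 26.0 and 27.1 CPM at S8 and 57.4, 54.7 and 55.7 CPM at S10. The groups did not overlap at these 3 stages, with the bud sport above. Log2 fold changes between the cultivars were 0.53, 0.30 and 0.71 at the first 3 stages and 3.39, 3.84 and 4.13 (SE 0.10, edgeR FDR 1.14e-14 for the last) at the other 3. The change from S5 to S10 was -4.31 in the parent (FDR 3.3e-16) and -0.72 in the bud sport, under the fold threshold.

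**Figure D4:**
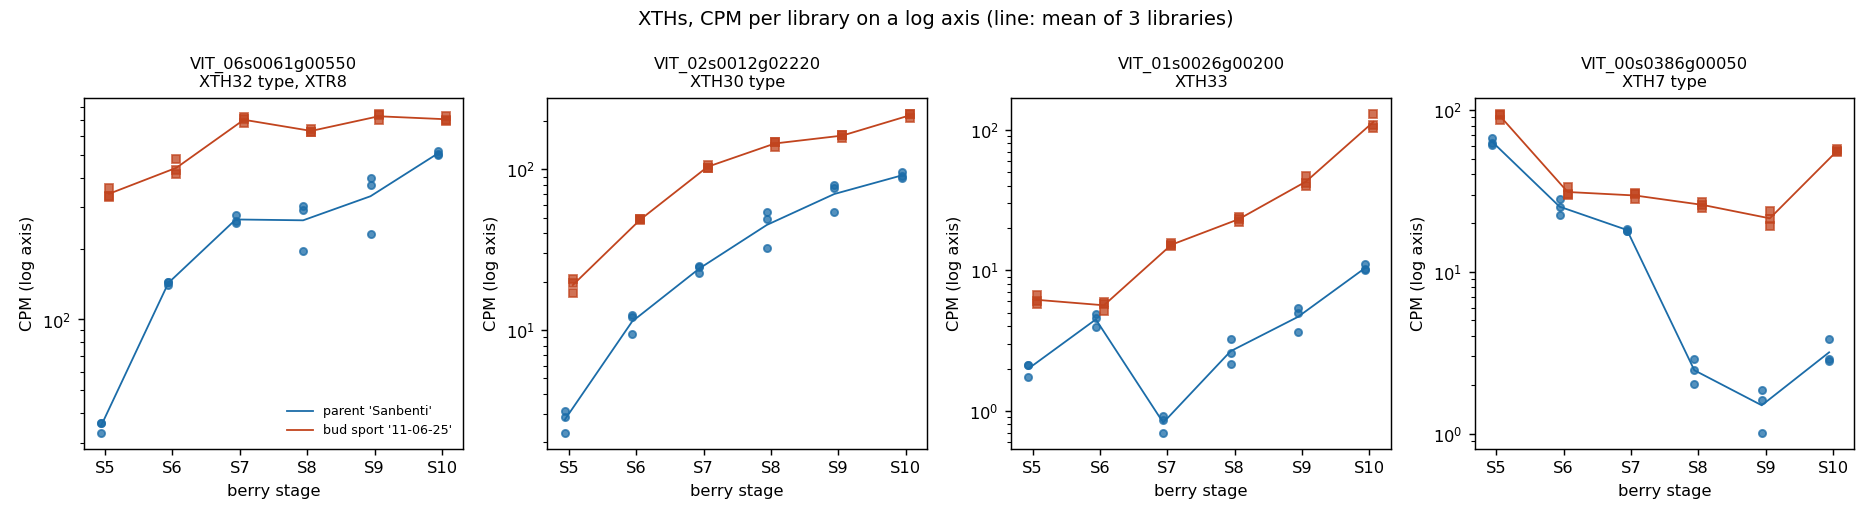
Level in CPM on log axes (vertical) of 4 XTHs at the 6 stages (horizontal axes). Points are single libraries of the parent (blue) and the bud sport (red), and lines join the means of 3 libraries. The XTH32 and XTH30 type genes start 3.28 and 2.79 log2 units higher in the bud sport at S5 and converge. XTH33 is higher in the bud sport by 1.63 at S5, 0.33 at S6 and 4.19 at S7. The XTH7 type gene is higher by 0.30 to 0.71 from S5 to S7 and by 3.39 to 4.13 from S8 to S10.

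Of the 33 XTHs, 11 have identifiers with the prefix VIT_11s0052g, 7 of them closest to Arabidopsis XTH23. In the RefSeq gene order VIT_11s0052g01180, VIT_11s0052g01190, VIT_11s0052g01200 and VIT_11s0052g01210 lie side by side, as do VIT_11s0052g01280 and VIT_11s0052g01300. Neighbouring copies of this kind can share reads, so values of single genes are less certain than their sum. The sum of the 11 genes was 33.0, 31.5 and 34.5 CPM in the parent at S5 and 55.9, 62.5 and 57.4 CPM in the bud sport. At S10 it was 177, 176 and 172 CPM in the parent and 600, 565 and 606 CPM in the bud sport. The bud sport libraries were above the parent libraries at every stage but S6, where they were below. From S5 to S10 in turn, the ratios of the means were 1.78, 0.754, 2.90, 1.55, 1.97 and 3.37. Those at S8 and S9 include the outlying parent library.

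In the count of single genes, 1 of 7 tested genes with the prefix was higher at S5, and 0 of 8, 6 of 8, 1 of 9, 7 of 10 and 9 of 10 at the stages that followed. Among the other 22 XTHs, 8 of 14 were higher at S5, and 4 of 13, 6 of 13, 5 of 14, 6 of 14 and 5 of 13 at the stages that followed. The prefix was looked at after the values were seen, and no test of the difference between these sets was made. The S8 and S9 counts of these sets include the outlying parent library and were not made without it. The most abundant gene with the prefix was VIT_11s0052g01320, with 96.6, 92.3 and 91.7 CPM in the parent and 276, 271 and 286 CPM in the bud sport at S10 (edgeR log2 fold change 1.56, FDR 4.13e-14). VIT_11s0052g01300 rose by 5.02 from S5 to S10 in the bud sport and by 3.80 in the parent. Its 98.4 CPM in the bud sport at S10 compared with 22.0 CPM in the parent. Its log2 fold change at S9 was 1.19 with all libraries and 0.92, below the fold threshold, without the outlying parent library. VIT_11s0052g01180 was the 1 gene with the prefix called higher at S5, by 3.86 (SE 0.30, edgeR FDR 1.32e-08), with 0.160 to 0.528 CPM in the parent and 4.66 to 6.43 CPM in the bud sport. VIT_11s0052g01330 was higher at the 4 stages from S7 to S10, from 0.394 to 2.37 CPM at S7 and from 1.87 to 12.2 CPM at S10. The parent libraries held 3, 6 and 13 reads of it at S7 and 21, 8 and 6 at S8. Its call at S8 was lost without bud sport library a or b, or without parent library b or c (edgeR FDR 0.0618 to 0.108).

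Other XTHs went with time or against the family. VIT_10s0116g00520 (XTH8) was higher in the bud sport at S5, S6 and S7, with 8.27, 8.92 and 8.89 CPM at S6 against 1.55, 1.80 and 1.88 CPM in the parent (edgeR log2 fold change 2.31, FDR 4e-08). At S9 and S10 its libraries overlapped between the cultivars, with values of -0.10 and 0.51. VIT_01s0011g06250, closest to Arabidopsis XTH27, was higher at S5 (1.39, FDR 4.98e-14) with 61.5, 64.2 and 62.3 CPM in the parent and 159, 164 and 167 CPM in the bud sport. Its values from S6 to S10 lay between 0.12 and 0.52. The XTHs lower at one stage or more were 5 in number, and 3 of these were higher at another stage, without a share over all genes beside these counts. The highest group mean of VIT_11s0052g01200 among them was 19.2 CPM, and that of the other 4 was at most 3.73 CPM.

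Of the cellulose synthases, 11 were called between the cultivars at 1 stage or more, a count without a share over all genes beside it. Of 30 tested genes of the superfamily 4 were higher and 4 lower at S5, of 29 at S6 0 were higher and 3 lower, of 27 at S7 1 was higher and 2 lower, of 25 at S8 none was called, of 26 at S9 2 were higher and 0 lower, and of 25 at S10 2 were higher and 0 lower. Over all genes tested, the shares higher were 7.51%, 2.69%, 3.47%, 2.71%, 3.44% and 3.59% at the 6 stages in turn. Those lower were 8.63%, 3.89%, 4.55%, 3.76%, 1.85% and 5.1%. At S8 DESeq2 called none of the superfamily either, and at an unadjusted edgeR p below 0.05 3 were higher and 6 lower. The medians lay between -0.18 and 0.05. The 3 most abundant were the CesA1 type gene VIT_04s0008g05220, the CesA3 gene VIT_13s0064g00890 and the untyped CesA VIT_18s0122g00120, with 128, 125 and 88.5 FPKM in the parent at S5.

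The Arabidopsis subunits CESA1 and CESA3 belong to the complex of the growing primary wall. VIT_04s0008g05220 had 447, 452 and 454 CPM in the parent at S5 and 422, 418 and 416 CPM in the bud sport, and 596, 621 and 616 against 522, 477 and 511 CPM at S10. The groups were apart at both stages, but its log2 fold changes over the 6 stages lay between -0.29 and 0.08. VIT_13s0064g00890 was at 390, 405 and 410 CPM in the parent at S5 and at 251, 254 and 251 CPM in the bud sport. Its log2 fold change was -0.67 at S5 (SE 0.03, edgeR FDR 3.92e-11), -0.52 at S6 and -0.55 at S7, each below the fold threshold, and -0.07 (FDR 0.129) at S10. VIT_18s0122g00120 had values between -0.10 and 0.05 over the 6 stages, with an edgeR FDR of 0.211 or more at each, and the model with the interaction of cultivar and stage gave it an FDR of 0.683.

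The CesA2 type gene VIT_18s0072g00370, a primary-wall subunit outside the naming rule, was the 1 CesA gene called higher in the bud sport, at S5 only, with 65.6 CPM in the parent and 172 CPM in the bud sport (edgeR log2 fold change 1.40). It rose from S5 to S10 by 2.69 in the parent and by 1.52 in the bud sport. The 1 CesA gene called lower, also at S5 only, was VIT_07s0031g02060 (-1.68). The 3 genes closest to the secondary-wall subunits 4, 7 and 8 were not tested, with at most 4, 6 and 13 reads in any library.

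CslD genes are the Csl branch closest to CesA, known in Arabidopsis for walls of tip-growing and dividing cells. VIT_02s0012g02190, of the CslD2 type, had 32.5, 34.2 and 34.0 CPM in the parent at S5 and 147, 155 and 145 CPM in the bud sport. At S7 it had 57.5, 57.5 and 63.0 CPM in the parent and 180, 162 and 172 CPM in the bud sport. The libraries did not overlap at these stages, and its log2 fold change was 2.15 (SE 0.04, edgeR FDR 1.46e-15) at S5 and 1.53 (SE 0.05, FDR 6.7e-11) at S7. At S6, between them, the value was -0.07 (FDR 0.346), with 143, 141 and 150 CPM in the parent and 150, 131 and 132 CPM in the bud sport. Its values from S8 to S10 were 0.35 to 0.62.

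The CslE, CslG and CslH branches have no settled role in the berry wall. Of the CslE genes, 6 of 10 tested fell from S5 to S10 in the parent and 4 of 9 in the bud sport, beside 19.3% and 17.8% of all genes, and none was called higher by edgeR or DESeq2 in either, with 1 in each at an unadjusted edgeR p below 0.05. VIT_19s0015g00730, of the CslE6 type, fell from 152, 150 and 156 CPM at S5 to 10.1, 10.1 and 10.5 CPM at S10 in the parent. In the bud sport it went from 97.8, 92.5 and 92.7 CPM at S5 to 12.7, 11.7 and 14.5 CPM at S8 and back to 27.9, 26.2 and 26.4 CPM at S10. It was lower in the bud sport at S7 (edgeR log2 fold change -1.19, FDR 9.16e-10) and higher at S10 (1.38, FDR 4.07e-10). VIT_00s0414g00060 fell by 1.82 in the parent and by 2.90 in the bud sport, on the log2 scale.

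Among the CslG genes, VIT_05s0049g00050 had 3.12, 2.82 and 3.25 CPM in the parent at S5 and 19.9, 23.4 and 24.2 CPM in the bud sport (edgeR log2 fold change 2.88, SE 0.12, FDR 6.06e-12). From S7 to S10 the cultivars lay between -0.13 and 0.13 of each other on the log2 scale. VIT_05s0049g00010 rose in both, by 3.39 in the parent and by 2.43 in the bud sport. Summed over the 19 CslG genes the bud sport libraries were above those of the parent at all 6 stages, with ratios of 1.13 to 1.92. The 2 tested CslH genes fell in both cultivars. The larger fall was that of VIT_12s0059g00990, from 14.2, 15.2 and 19.4 CPM at S5 in the parent and 4.29, 5.01 and 3.76 CPM in the bud sport to at most 0.375 CPM at S10.

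**Figure D5:**
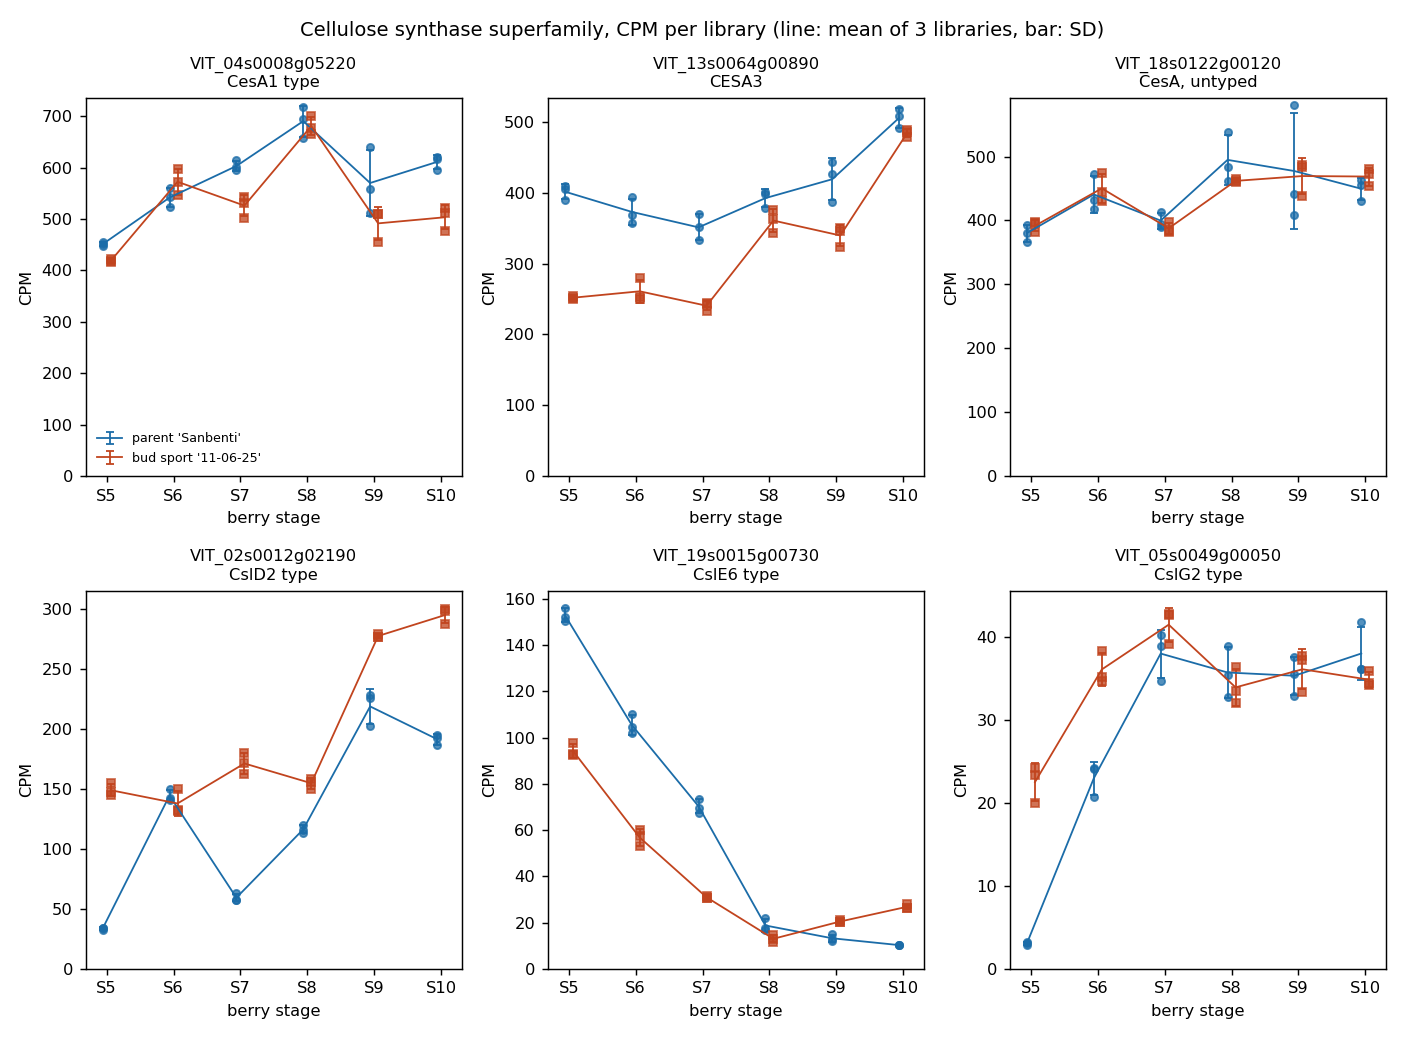
Level in CPM (vertical axes, each from 0) of 3 CesA and 3 Csl genes at the 6 stages (horizontal axes). Points are single libraries of the parent (blue) and the bud sport (red), lines join means of 3 libraries and bars are SDs. The untyped CesA VIT_18s0122g00120 stays between -0.10 and 0.05 log2 units of the parent, CESA3 starts 0.67 log2 units lower in the bud sport and the CslD2 type gene is higher in the bud sport at S5 and S7 and level at S6.

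Whether the cultivar difference depended on the stage was tested with the interaction term in 1 edgeR model of all 36 libraries. It passed an FDR of 0.05 for 59 of the 75 tested members, beside 63.7% of all genes. By family it passed for 23 of 25 XTHs, 22 of 31 cellulose synthases and 14 of 19 expansins. In the contrast of the change from S5 to S10 between the cultivars, called at an FDR below 0.05 and an absolute difference above 1, 8 of 19 expansins were more negative in the bud sport and 0 more positive. Of the 25 XTHs 11 were more positive and 7 more negative, and of the 31 cellulose synthases 5 were more positive and 4 more negative. Over all genes tested 6.7% were more positive and 10.2% more negative. The difference was -4.39 (SE 0.125, FDR 4.74e-25) for the expansin VIT_14s0108g01020 and -2.73 (SE 0.08, FDR 1.21e-24) for VIT_13s0067g02930. It was 3.61 (SE 0.14, FDR 3.13e-21) for the XTH VIT_00s0386g00050 and -2.79 (SE 0.175, FDR 1.69e-15) for VIT_06s0061g00550.

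Genes that act beside the 3 families were read from the same fits. Of the 29 endoglucanases, a family that includes the membrane-bound KORRIGAN enzyme of cellulose synthesis, 9 were tested between the cultivars at each stage. The numbers higher and lower in the bud sport were 4 and 1 at S5, 5 and 0 at S6 and 3 and 1 at S7. They were 1 and 3 at S8 and 0 and 3 at both later stages. Of all genes tested, 2.69% to 7.51% were higher and 1.85% to 8.63% lower at the 6 stages. In the contrast of S10 with S5 between the cultivars, 6 of 11 endoglucanases were more negative in the bud sport and 0 more positive. Over all genes 10.2% were more negative and 6.7% more positive. Of the 14 xyloglucan glycosyltransferases, which build the polymer that XTHs cut, 9 were tested. At S5 1 was higher and 1 lower, from S6 to S9 none was called, and at S10 2 were lower, beside 5.29% to 8.02% of all genes called from S6 to S9 and 5.1% lower at S10. Of the 35 alpha-xylosidases and beta-galactosidases, which trim xyloglucan side chains and other galactans, 11 were tested, and 0 rose and 5 fell from S5 to S10 in the bud sport, beside 2 and 2 in the parent. Of all genes tested, 10.9% rose and 17.8% fell in the bud sport, and 13% rose and 19.3% fell in the parent. Of the 10 COBRA genes, whose proteins guide microfibril orientation, 4 were tested at S5, with 1 higher and 1 lower. From S6 on, 5 were tested and none was called between the cultivars, beside 5.29% to 8.69% of all genes called. The 2 chitinase-like genes were called in none of the 8 comparisons, beside 5.29% to 32.3% of all genes. Both passed the interaction test, beside 63.7% of all genes. In the contrast of S10 with S5, 1 was more negative in the bud sport, beside 10.2% of all genes.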

How the data were processed

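The data were whole-gene RNA-seq values of 36 libraries. The deposited table gives raw counts per gene for each library and FPKM per gene for each library, both made by the authors, whose methods name TopHat 2, a reference Vitis vinifera genome and Cuffdiff. The counter, its strand setting and the version of the genome build are not given in the sources used here, so overlapping genes and near-identical copies may share reads. A further 111 columns hold the authors’ own comparisons (log2 fold changes and FDR values) and were not used; 3 of these comparisons mix the cultivars.

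Counts were tested with edgeR 4.0.16 (quasi-likelihood test, TMM scaling, filterByExpr with a minimum count of 10 and a total of 15) in R 4.3.3 with limma 3.58.1, on the 6 libraries of each comparison, and P-values were adjusted over all genes tested. The interaction was fitted on all 36 libraries. CPM values are TMM-scaled. FPKM was used to compare levels between genes, for the shares of the expansin sum and, as an alternative to CPM, for the ratios of summed levels. DESeq2 1.42.0 was an alternative, as were RLE and upper-quartile scaling, no filter, a fit of all 36 libraries, a replicate block and leaving out each library. The procedure was tested on simulated data. Tables and plots were made with Python 3.11.15, numpy 2.4.6, pandas 2.3.3 and matplotlib 3.10.9.

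The genes named in each family were the 3 with the highest mean FPKM, those with the highest and lowest called fold change in each comparison among genes with a group mean of at least 5 CPM and no overlap, and those called one way at 4 stages or more. The members and lists were chosen with earlier results of these data known. Of the 127 members, 43 carried an NCBI gene ID and 41 matched RefSeq, which was used for gene order only.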

Additional observations from a re-analysis of the deposited data

Results flagged for a closer look

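The change from S5 to S10 differed between the cultivars by more than 2 log2 units, with an FDR below 0.05 for the contrast in edgeR’s model of all 36 libraries, in 11 of the genes chosen by the naming rule. Outside that rule the difference was also beyond 2 for other members, among them VIT_08s0007g00440 (-2.75), VIT_17s0053g00990 (-2.57) and VIT_11s0052g01280 (2.04). Values are bud sport minus parent. Among the expansins the difference was -2.73 for VIT_13s0067g02930, -4.39 for VIT_14s0108g01020, -2.73 for VIT_15s0021g02700 and -6.35 for VIT_06s0004g00070. The last value depends on the prior count, since no bud sport library had a read at S10. Among the XTHs it was 3.61 for VIT_00s0386g00050, -2.79 for VIT_06s0061g00550, -2.06 for VIT_11s0052g01180 and 2.46 for VIT_11s0052g01330. Among the cellulose synthase superfamily it was -3.00 for VIT_05s0049g00050, 2.95 for VIT_12s0059g00990 and 2.09 for VIT_19s0015g00730.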

How the results depend on the processing

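Most counts of members called stayed within 1.5 times of the values given. In the fit of all 36 libraries 7 members were lower at S10, against 4. Leaving out 1 library gave 3 to 6 members lower at S7 (5 with all; 3 without bud sport library c or parent library a), 3 to 5 at S8 (5; 3 without bud sport library b), 1 to 2 at S9 (2; 1 without bud sport library b, parent library b or parent library c) and 5 to 8 higher at S8 (7). By family, several counts of 2 went to 1: XTHs lower at S6 (without library a of either cultivar) and at S8 (without bud sport library a or b), cellulose synthases lower at S7 (without bud sport library b or c or parent library a) and higher at S9 (without bud sport library a or b or parent library b), and expansins lower at S7 (without bud sport library c or parent library a or b) and at S9 (without bud sport library b or parent library b or c). The count of expansins higher at S6 went from 0 to 1 without bud sport library a or b, and that at S10 from 1 to 0 without bud sport library c. With FPKM in place of CPM the log2 ratios of the summed levels were 1.33 at S5, 0.78 at S6 and 0.97 at S10 for the XTHs, 0.14 at S5, -0.067 at S7 and 0.13 at S10 for the cellulose synthases, and 1.09 at S5 and 0.29 at S6 for the expansins. The cause of these shifts was not tested. With the replicate letter as a block, 58 members passed the interaction test against 59, and the counts of the 8 comparisons were the same. Nothing says whether libraries of the same letter belong together. Correlations of same-letter libraries were -0.098 to 0.128, and in no comparison was every pair over 0.1. Between the cultivars at S7, all 3 letters correlated best with their own (0.128, 0.037 and 0.082). Upper-quartile scaling moved the median of all genes at S5 from -0.02 to -0.13 and that of the parent from S5 to S10 from -0.02 to -0.14. Of 95 calls on named genes, 88 held under every alternative, 7 were lost under at least 1, and 0 changed sign. The CslB genes had no reads and the secondary-wall CesA genes too few to be tested.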
